A study of Homo sapiens with 32 samples.

Results

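Whether removal of IGF2BP3 alters the response to endoplasmic reticulum (ER) stress was read as a difference of 2 differences per gene, over the 16 libraries of the degron-tagged line out of 32 libraries in all. The log2 change with stress in auxin-treated cells had the log2 change with stress in vehicle-treated cells taken off it, with 4 libraries in each of the 4 groups. A positive value means that the log2 change was higher, or less negative, with auxin. It was computed for total reads of a gene, for labelled reads and for the labelled share. Labelled reads are those that carry T-to-C conversions, and were taken as RNA made during the pulse. The labelled share sets the labelled reads of a gene against its other reads.

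The cells were HCT116, a human colorectal carcinoma line with a doxycycline-inducible OsTIR1, a plant F-box protein that has degron-fused proteins degraded once auxin is added. Both endogenous IGF2BP3 alleles of the tagged line carry the degron mAID, per the labels' growth protocol; in the parental line IGF2BP3 has no tag. RNA was read by SLAM-seq, in which 4-thiouridine (s4U) fed to cells is later seen as T-to-C conversions in 3′-end reads. The 16 tagged libraries fall into stressed auxin-treated cells (tunicamycin at 5 µg/mL for 5 h and auxin at 500 µM for 9 h), unstressed auxin-treated cells (DMSO and the same auxin), stressed vehicle-treated cells (the same tunicamycin, no auxin) and unstressed vehicle-treated cells (DMSO alone). In both lines every group was kept in doxycycline (200 ng/mL) over 24 h and was given a 2 h pulse of s4U at 250 µM. In the labels of 2 unstressed vehicle-treated libraries the name mAID-IGF2BP3 is repeated; they were treated as the same line. Each library is 1 well of cells, and nothing in the labels states separate cultures, so p-values measure the spread between wells, which may be technical.

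The unfolded protein response has 3 sensors in the ER membrane. IRE1 splices the XBP1 mRNA, ATF6 is released by cleavage and induces ER chaperones, and PERK slows translation while ATF4 and its partner CHOP (gene DDIT3) are made, which induce amino acid and redox genes. Tunicamycin sets off all 3 by blocking N-linked glycosylation. IGF2BP3 is an RNA-binding protein of embryonic and tumour cells that binds mRNAs, many of them m6A-modified, and is known for altering their stability and translation.

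Gene expression is given as CPM, reads scaled to a common library size after TMM scaling of library sizes, errors of log2 values are standard errors, and tests are edgeR's quasi-likelihood test over all genes of a fit. The tagged libraries held 2.55 M to 5.04 M reads in named genes and 0.262 M to 0.545 M labelled reads. Of 12 epithelial markers 8 were listed; KRT8, KRT18, KRT19 and EPCAM lay between 213 and 1170 CPM, and KRT20 and CEACAM5 were at or under 2.42 CPM. The summed epithelial markers came to 2388 to 2537 CPM in stressed auxin-treated, 2121 to 2311 in unstressed auxin-treated, 2478 to 2670 in stressed vehicle-treated and 2179 to 2539 in unstressed vehicle-treated libraries. Of 6 blood and endothelial markers none was over 1.23 CPM, and of 6 fibroblast markers COL1A1 stood at 18.6 to 38.5 CPM in tagged libraries, PDGFRB at no more than 0.390 CPM and the other 4 were not listed. Bulk reads cannot tell fewer cells of a kind from less RNA per cell. Auxin-treated libraries covered more T positions per read, 22.8 ± 0.153 stressed and 23.2 ± 0.658 unstressed, against 21.8 ± 0.590 and 21.8 ± 0.191 with vehicle (SD, n = 4 each); the part of this measure in the results was not tested.

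The promoters of 5 genes that answer the sensors are shown, and their part in the response that was compared was not measured. They are the 250 bases before the transcript start in RefSeq (GRCh38.p14), printed 5′ to 3′ along the gene's strand, and capitals mark motif matches on either strand. The ER stress response element ERSE, searched as CCAAT and CCACG with 9 free bases between them, is bound by ATF6 and XBP1 with the factor NF-Y. ERSE-II was searched as ATTGG and CCACG with 1 free base between them and is bound by the same stress factors, and CARE, bound by ATF4, was searched as TGATGNAA. XBP1 is on chr22:28800570-28800819 (minus strand), HSPA5 on chr9:125241344-125241593 (minus), HERPUD1 on chr16:56931892-56932141 (plus), HSP90B1 on chr12:103930160-103930409 (plus) and CHAC1 on chr15:40953221-40953470 (plus).
XBP1: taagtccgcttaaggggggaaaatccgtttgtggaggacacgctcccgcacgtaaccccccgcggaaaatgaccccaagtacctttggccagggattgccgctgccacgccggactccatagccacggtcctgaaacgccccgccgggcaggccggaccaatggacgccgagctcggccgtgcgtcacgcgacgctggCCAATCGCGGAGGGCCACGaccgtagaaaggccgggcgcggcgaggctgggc
HSPA5: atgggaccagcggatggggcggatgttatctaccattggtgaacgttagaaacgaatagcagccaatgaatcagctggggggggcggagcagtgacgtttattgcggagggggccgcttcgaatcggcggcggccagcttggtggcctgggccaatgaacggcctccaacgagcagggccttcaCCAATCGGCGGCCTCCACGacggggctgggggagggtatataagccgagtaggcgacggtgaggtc
HERPUD1: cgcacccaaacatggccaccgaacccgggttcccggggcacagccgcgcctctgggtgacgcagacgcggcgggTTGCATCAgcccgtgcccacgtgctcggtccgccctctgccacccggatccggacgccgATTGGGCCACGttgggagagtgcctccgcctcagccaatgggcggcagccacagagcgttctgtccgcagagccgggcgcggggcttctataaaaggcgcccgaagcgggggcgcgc
HSP90B1: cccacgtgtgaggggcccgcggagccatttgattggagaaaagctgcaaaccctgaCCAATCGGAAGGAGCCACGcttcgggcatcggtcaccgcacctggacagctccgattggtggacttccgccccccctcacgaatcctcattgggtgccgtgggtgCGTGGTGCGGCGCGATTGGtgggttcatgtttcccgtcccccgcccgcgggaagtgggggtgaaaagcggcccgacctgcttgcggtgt
CHAC1: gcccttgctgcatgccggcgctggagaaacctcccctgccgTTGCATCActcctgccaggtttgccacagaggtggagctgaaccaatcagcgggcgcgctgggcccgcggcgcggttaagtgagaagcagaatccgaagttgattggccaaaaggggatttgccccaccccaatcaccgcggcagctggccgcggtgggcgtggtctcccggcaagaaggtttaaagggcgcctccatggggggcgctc
XBP1 and HSPA5 each hold 1 ERSE, HSP90B1 holds 2, HERPUD1 holds an ERSE-II and a CARE, and CHAC1 holds a CARE. Of 27305 RefSeq promoters of this length, 1 per symbol, 22 (0.0806%) hold an ERSE, 14 (0.0513%) an ERSE-II and 870 (3.19%) a CARE; a match is a run of letters and not a measured binding site.

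IGF2BP3 itself (chromosome 7, 23310209 to 23470491, hg38) was read first. It stood at 172, 154, 139.6 and 152 CPM in stressed auxin-treated cells, against 171, 131, 162 and 136 CPM in unstressed auxin-treated cells. The vehicle arm had it at 176, 153, 162 and 186 CPM in stressed cells, against 155, 154, 155 and 163 CPM in unstressed cells. All 4 groups overlap, and the difference of the responses was -0.07 ± 0.13 (95% interval -0.33 to 0.19). Auxin acts on the protein, so the mRNA does not show whether the protein was removed, and protein was not analysed here.

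No gene passed for the difference of the responses, in any of the 3 readings, at an edgeR adjusted p under 0.05: 0 of 10847 genes (0%) for total reads, 0 of 8101 (0%) for labelled reads and 0 of 8101 (0%) for the labelled share. At an unadjusted p under 0.05 there were 290 (2.67%), 331 (4.09%) and 419 (5.17%) genes. The lowest edgeR adjusted p was 0.9999 for total reads, 0.377 for labelled reads and 0.0863 for the share. DESeq2 called 0 genes for total and for labelled reads (250 and 275 at an unadjusted p under 0.05), and limma-voom 0 for total reads (291).

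The response itself was large in both arms. Tunicamycin changed 975 of 10847 genes (8.99%) in total reads with auxin, 634 higher (5.84%) and 341 lower (3.14%), and 884 (8.15%) with vehicle, 571 higher (5.26%) and 313 lower (2.89%). Of these, 622 passed with the same sign in both arms, 63.8% of the auxin list and 70.4% of the vehicle list. Another 615 passed in 1 arm only, and 586 of them had the same sign in both arms. No gene at all passed the test of the difference, so the 615 could hold none that did. At an edgeR unadjusted p under 0.05 there were 74 of the 615, beside 290 of all 10847 genes (2.67%). The 615 were chosen on the 2 responses whose difference is tested, so the count of 74 is not independent of that choice. No gene passed with opposite signs. In labelled reads 1069 genes (13.2%) passed with auxin and 1034 (12.8%) with vehicle, 646 in both; in the labelled share 648 (8.00%) and 626 (7.73%), 369 in both. The 2 responses share no library. Over all genes their log2 values had a Pearson r of 0.712 in total reads and 0.753 in labelled reads, as a description across genes that share each library's depth.

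**Figure D1:**
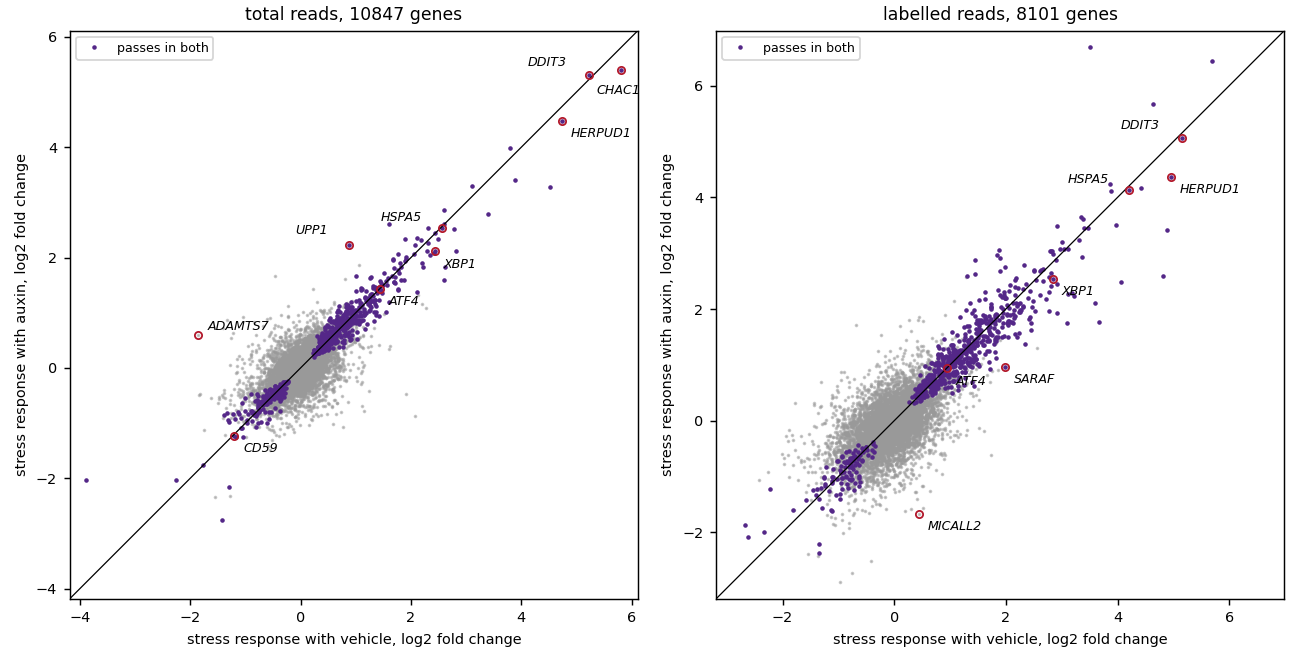
Log2 change with stress in auxin-treated (y axis) against vehicle-treated (x axis) tagged cells, for total reads (left) and labelled reads (right); each point is a gene, purple points pass in both arms, the line marks equal responses and circles mark genes named in the text. The 622 (total) and 646 (labelled) purple genes spread along the line, with HSPA5, HERPUD1 and DDIT3 high in both arms and CD59 low in both for total reads.

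How far a difference could go unseen depends on the level of a gene. For total reads the 95% interval of the difference lay within 1 log2 unit of 0 for 8556 of 10847 genes (78.9%) and within 0.5 for 4074 (37.6%). Of the 2258 genes over 100 CPM, 99.5% were bounded within 1 log2 unit, with a median of 0.253 from the value to either end; of the 934 genes under 5 CPM 0.642% were, with a median of 1.23. For labelled reads 3706 genes (45.7%) were bounded within 1 log2 unit and for the labelled share 3106 (38.3%). The interval of a gene holds the differences that these libraries do not exclude at the 95% level, before adjustment over genes. Counting error and the spread between wells both enter the intervals.

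Among the regulators of the response, XBP1 (chromosome 22, 28794560 to 28800569), which encodes the factor made from IRE1-spliced mRNA, stood at 242, 232, 219 and 242 CPM in stressed auxin-treated cells, against 56.3, 55.7, 46.1 and 57.3 CPM in unstressed auxin-treated cells. Vehicle-treated cells had it at 216, 201, 189.7 and 187 CPM in stressed cells, against 34.9, 36.9, 41.3 and 33.7 CPM in unstressed cells. The stressed and unstressed groups do not overlap in either arm, and every auxin-treated library lies above every vehicle-treated one of the same state. XBP1 rose with stress by 2.11 ± 0.09 with auxin and by 2.43 ± 0.10 with vehicle, a difference of -0.32 ± 0.13 (95% interval -0.59 to -0.05; edgeR unadjusted p 0.0199) that did not pass.

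ATF4 (chromosome 22, 39520559 to 39522686) encodes the factor that is translated when PERK is active. It stood at 1457, 1632, 1402 and 1591 CPM in stressed auxin-treated cells, against 635, 439, 547 and 638 CPM in unstressed auxin-treated cells. In the vehicle arm it was at 1867, 2118, 1619 and 2308 CPM in stressed cells, against 702, 710.4, 686 and 827 CPM in unstressed cells. Unstressed auxin-treated libraries lie below all unstressed vehicle-treated ones, and 3 of 4 stressed auxin-treated libraries below all stressed vehicle-treated ones. ATF4 rose by 1.43 with auxin and by 1.44 with vehicle, with a difference of -0.01 ± 0.16 (95% interval -0.33 to 0.32).

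DDIT3 (chromosome 12, 57516588 to 57520517), which encodes CHOP, was at 753, 888, 778 and 979 CPM in stressed auxin-treated cells, against 14.8, 20.6, 28.3 and 22.2 CPM in unstressed auxin-treated cells. With vehicle the values were 801, 938, 728 and 948 CPM in stressed cells, against 19.7, 27.0, 20.8 and 23.3 CPM in unstressed cells. Auxin and vehicle overlap within each state, and the difference of the responses (5.30 with auxin, 5.22 with vehicle) was 0.08 ± 0.20 (95% interval -0.34 to 0.50). ATF6 had a difference of -0.23 ± 0.15 and EIF2AK3, the gene of PERK, one of 0.15 ± 0.32; both rose with stress in both arms. The rise of ATF6 with auxin (0.35 ± 0.11) did not pass when any 1 of 5 auxin-treated libraries was left out (edgeR adjusted p 0.0517 to 0.184): replicates 1, 3 and 4 of unstressed and replicates 3 and 4 of stressed cells. ERN1, the gene of IRE1, was not among the genes tested.

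**Figure D2:**
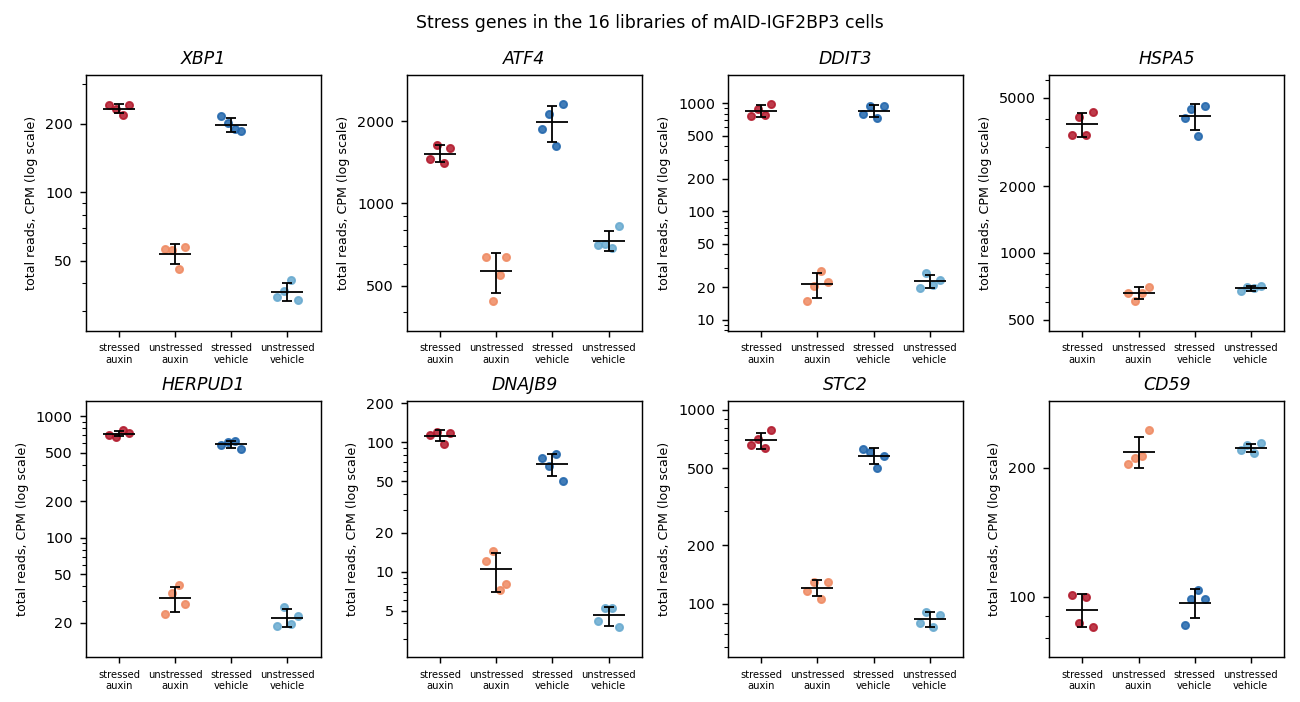
Total reads of 8 stress genes in CPM (log scale, y axis) in each of the 16 tagged libraries (points) by group (x axis), with mean and SD (bars). Stressed and unstressed libraries separate in all 8 genes within both arms; unstressed, every auxin-treated library of XBP1, DNAJB9 and STC2 lies above every vehicle-treated one, while HERPUD1, DDIT3, HSPA5 and CD59 overlap.

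Among the ER chaperones, HSPA5 (chromosome 9, 125234853 to 125241343), the chaperone BiP that holds the sensors inactive, stood at 3407, 4077, 3398 and 4324 CPM in stressed auxin-treated cells, against 661, 607, 662 and 706 CPM in unstressed auxin-treated cells. The vehicle arm had it at 4067, 4461, 3356 and 4592 CPM in stressed cells, against 671, 699.9, 693 and 707 CPM in unstressed cells. The auxin and vehicle libraries of a state overlap. HSPA5 rose by 2.53 with auxin and 2.57 with vehicle, and the difference was -0.04 ± 0.12 (95% interval -0.30 to 0.21).

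Labelled HSPA5 reads were taken as newly made transcripts. They were at 8506, 10099.9, 8439 and 10523 CPM of labelled reads in stressed auxin-treated cells. In unstressed auxin-treated cells they were at 534, 545, 482 and 584. With vehicle they were at 10219, 10903, 8328 and 11227 CPM in stressed cells, against 512, 577, 576 and 528 in unstressed cells. The difference was -0.08 ± 0.13 (95% interval -0.33 to 0.16). HYOU1 (0.09 ± 0.14), PDIA4 (-0.07 ± 0.14), CALR (0.12 ± 0.10) and SDF2L1 (0.22 ± 0.20), which fold or hold proteins in the ER lumen, had total-read intervals that include 0. HSP90B1 (chromosome 12, 103930410 to 103947926), the chaperone GRP94, was bounded less well, -0.18 ± 0.36 (95% interval -0.96 to 0.61).

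Of 31 ER chaperones and disulfide isomerases tested (33 in the list), 27 were higher with stress in the auxin arm, against 5.84% of all genes, and 26 were higher (5.26% of all genes) and 1 lower in the vehicle arm. Their differences had a median of -0.02 with 13 of 31 above 0, beside a median of 0.01 and 51.3% above 0 over all genes tested. They ran from -0.98 (DNAJC1, a co-chaperone; edgeR unadjusted p 0.0191) to 0.30 (SIL1, an exchange factor of HSPA5). The median for labelled reads was -0.05, with 12 of 30 above 0.

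ER-associated degradation takes misfolded proteins to the proteasome. HERPUD1 (chromosome 16, 56932142 to 56944864), which anchors the ubiquitin ligase complex, was at 707, 681, 767 and 724 CPM in stressed auxin-treated cells, against 23.8, 35.2, 40.9 and 28.5 CPM in unstressed auxin-treated cells. With vehicle it was at 579, 616, 631 and 539 CPM in stressed cells, against 19.0, 27.0, 19.5 and 22.8 CPM in unstressed cells. Under stress every auxin library lies above every vehicle library; unstressed, the groups overlap. The response was 4.48 with auxin and 4.73 with vehicle, a difference of -0.25 ± 0.16 (95% interval -0.59 to 0.08).

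In labelled reads HERPUD1 was at 2506, 2439, 2465 and 2629.7 CPM in stressed auxin-treated cells, against 66.4, 141, 134 and 138 CPM in unstressed auxin-treated cells. Vehicle-treated cells had it at 1897, 2162, 2101 and 1829 CPM in stressed cells, against 54.8, 63.2, 68.3 and 67.9 CPM in unstressed cells. Of the unstressed auxin-treated libraries, 3 of 4 lie above every unstressed vehicle-treated one and replicate 1 lies within their range. The difference was -0.59 ± 0.20 (95% interval -0.99 to -0.19; edgeR unadjusted p 0.0036) and did not pass after adjustment.

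SEL1L (chromosome 14, 81471547 to 81533853), the adaptor of the ligase SYVN1, stood at 176, 214, 205 and 249 CPM in stressed auxin-treated cells, against 59.0, 49.3, 56.9 and 61.2 CPM in unstressed auxin-treated cells. In the vehicle arm it was at 222, 239, 209.6 and 235 CPM in stressed cells, against 44.7, 54.0, 52.7 and 45.4 CPM in unstressed cells. The difference of -0.30 ± 0.14 (edgeR unadjusted p 0.0469) in total reads stands beside 0.23 ± 0.30 in labelled reads, so the 2 readings do not share a sign. SYVN1 itself had -0.04 ± 0.23 in total and 0.57 ± 0.27 in labelled reads (edgeR unadjusted p 0.0371), and EDEM1, a mannosidase-like protein of the same route, 0.24 ± 0.36 in total reads. Of 27 degradation genes tested (28 in the list) 11 rose with stress in each arm, where 5.84% of all genes did with auxin and 5.26% with vehicle. Their differences had a median of -0.04 with 10 of 27 above 0, against 51.3% of all genes.

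DNAJB9 (chromosome 7, 108569874 to 108574850), a co-chaperone that restrains IRE1, was at 114, 120.3, 96.6 and 118 CPM in stressed auxin-treated cells, against 12.1, 14.4, 7.15 and 8.03 CPM in unstressed auxin-treated cells. With vehicle it was at 75.03, 65.2, 81.5 and 50.4 CPM in stressed cells, against 4.17, 5.27, 5.21 and 3.71 CPM in unstressed cells. All auxin-treated libraries lie above all vehicle-treated ones of the same state. The difference was -0.47 ± 0.30 (95% interval -1.08 to 0.14).

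Of the targets of ATF4 and CHOP, CHAC1 (chromosome 15, 40953471 to 40956512), which degrades glutathione, was at 69.1, 81.8, 78.2 and 96.6 CPM in stressed auxin-treated cells, against 3.80, 2.23, 0.9749 and 0.831 CPM in unstressed auxin-treated cells. Vehicle-treated cells had it at 70.5, 88.0, 66.2 and 89.3 CPM in stressed cells, against 1.90, 2.30, 0.651 and 0.796 CPM in unstressed cells. Auxin and vehicle overlap in both states, and with so few unstressed reads the difference was held only to -0.42 ± 0.52 (95% interval -1.49 to 0.64). Its unstressed labelled reads numbered 1 to 5 per library, so its labelled share is not read.

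SLC7A11 (chromosome 4, 138164097 to 138242349), the cystine importer, had one of the 5 smallest p-values below 0 for total reads. It stood at 343, 400.1, 388 and 414 CPM in stressed auxin-treated cells, against 99.8, 109.7, 121 and 107 CPM in unstressed auxin-treated cells. In the vehicle arm it was at 340.3, 383, 347 and 379 CPM in stressed cells, against 80.4, 82.3, 78.8 and 71.9 CPM in unstressed cells. The stressed groups overlap, and the unstressed auxin-treated libraries all lie above the unstressed vehicle-treated ones. The difference was -0.39 ± 0.12 (95% interval -0.62 to -0.15; edgeR unadjusted p 0.00207, adjusted p 0.9999).

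STC2 (chromosome 5, 173314723 to 173328414), a secreted glycoprotein induced by ATF4, stood at 659, 704, 635 and 782 CPM in stressed auxin-treated cells, against 117, 130.1, 107 and 130.2 CPM in unstressed auxin-treated cells. With vehicle it was at 624, 608, 500.4 and 579.5 CPM in stressed cells, against 79.6, 91.2, 75.8 and 87.3 CPM in unstressed cells. Its difference was -0.27 ± 0.12 in total reads (edgeR unadjusted p 0.039) and -0.48 ± 0.16 in labelled reads (0.00307), neither of which passed. TRIB3 (0.00 ± 0.16), ASNS (0.15 ± 0.14), SESN2 (0.19 ± 0.16), DDIT4 (0.20 ± 0.30) and PPP1R15A (0.28 ± 0.16) had intervals that include 0 in total reads. Of 37 targets of ATF4 and CHOP tested (42 in the list), 32 rose with stress with auxin (5.84% of all genes) and 30 with vehicle (5.26%). Their differences had a median of 0.01 with 20 of 37 above 0 (51.3% of all genes); SLC6A9, a glycine transporter, had the largest at 1.01 ± 0.44.

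**Figure D3:**
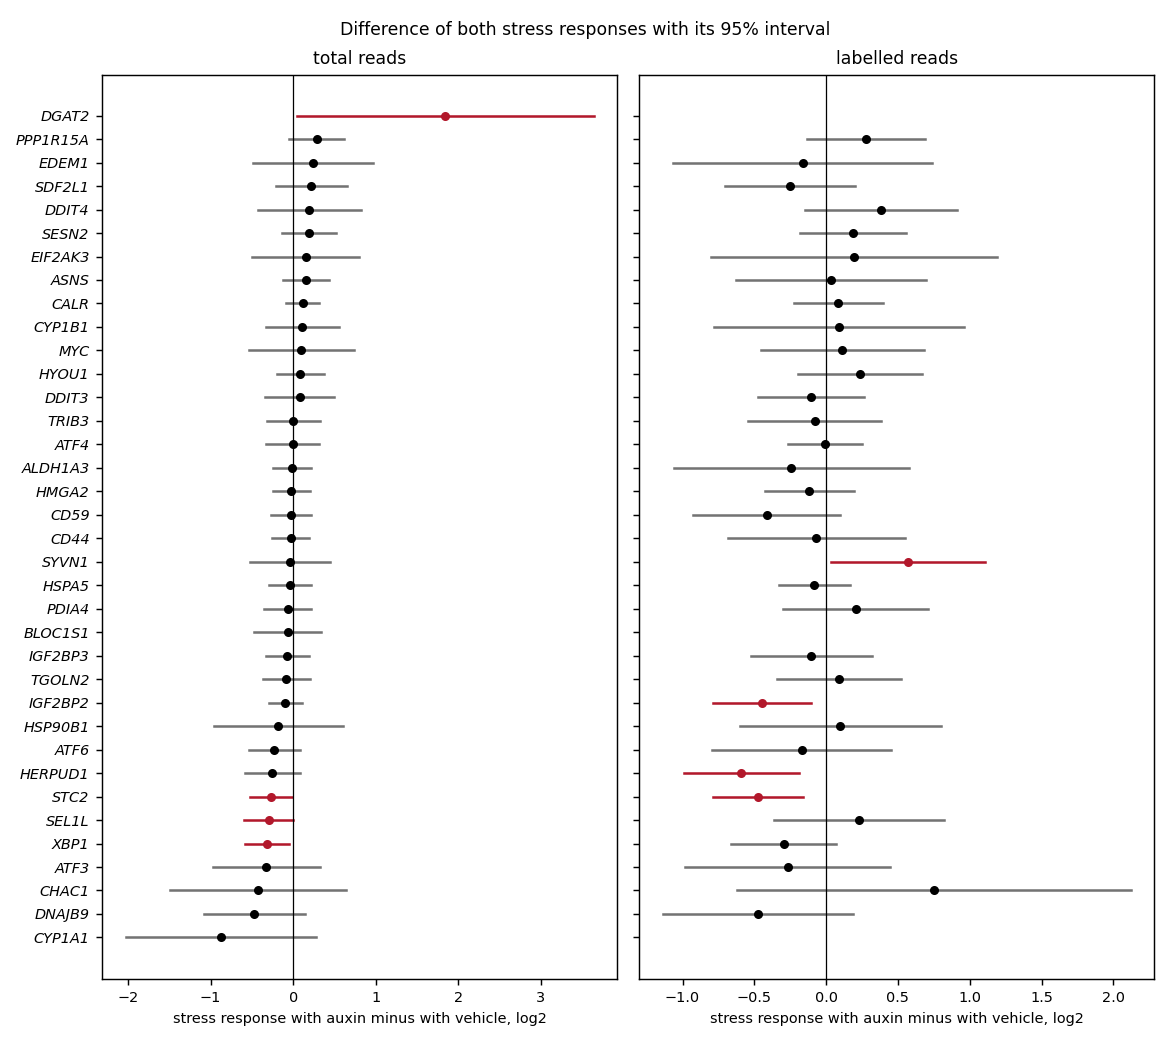
Difference of both stress responses (log2, x axis; auxin minus vehicle) with its 95% interval for a panel of stress, IGF2BP and control genes (y axis) in total reads (left) and labelled reads (right); red marks an unadjusted p under 0.05 and missing points were not tested. No gene passed after adjustment; red intervals are those of DGAT2, STC2, SEL1L and XBP1 in total reads and of SYVN1, IGF2BP2, HERPUD1 and STC2 in labelled reads.

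The difference can also be written as the auxin effect under stress minus the auxin effect without it. Among 5 genes with a negative difference, XBP1 was higher with auxin by 0.24 ± 0.08 under stress (edgeR adjusted p 0.0631) and by 0.56 ± 0.10 unstressed (adjusted p 0.000812). HERPUD1 was higher by 0.28 ± 0.09 (0.0446) and 0.54 ± 0.14 (0.00717), STC2 by 0.27 ± 0.08 (0.0406) and 0.53 ± 0.09 (0.000702), and DNAJB9 by 0.73 ± 0.14 (0.0053) and 1.20 ± 0.27 (0.00253), edgeR adjusted p in parentheses. For SLC7A11 the auxin effects were 0.09 ± 0.08 (0.436) and 0.48 ± 0.09 (0.000728). Over all genes, total reads of 901 (8.31%) changed with auxin under stress and of 2364 (21.8%) unstressed; a larger count in one state does not by itself show a different effect, and the test of the difference is the one with 0 calls. These 5 genes were picked for being higher with auxin, so their shared direction comes from the choice. ATF4 was lower with auxin in both states, by -0.38 ± 0.11 (edgeR adjusted p 0.0368) under stress and -0.37 ± 0.11 (0.0219) unstressed. ASNS, asparagine synthetase, had -0.23 ± 0.09 (0.0997) under stress and was lower unstressed, -0.38 ± 0.10 (0.00867, edgeR adjusted p).

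Genes that lost RNA under stress were given the same comparison. CD59 (chromosome 11, 33703010 to 33736479), a complement inhibitor made at the ER, was at 101, 87.0, 99.7 and 85.02 CPM in stressed auxin-treated cells, against 204, 211, 213 and 245 CPM in unstressed auxin-treated cells. Vehicle-treated cells had it at 85.9, 98.6, 104 and 98.8 CPM in stressed cells, against 219.9, 225, 217 and 228 CPM in unstressed cells. CD59 fell by 1.23 with auxin and by 1.20 with vehicle on the log2 scale, and the difference was -0.03 ± 0.12 (95% interval -0.27 to 0.22). TGOLN2, a trans-Golgi membrane protein, had -0.08 ± 0.14. DGAT2, a fat synthesis enzyme and reported substrate of IRE1-dependent decay, fell by 2.04 with auxin and by 3.88 with vehicle; at 0.00 to 2.73 CPM in stressed auxin-treated and 0.00 to 1.84 CPM in stressed vehicle-treated cells its difference of 1.84 ± 0.88 rests on few reads.

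IGF2BP-related genes were read as a group of their own. IGF2BP2 (chromosome 3, 185643130 to 185825042), a paralogue of IGF2BP3, had a total-read difference of -0.09 ± 0.10. Its labelled reads were at 486, 418, 379 and 449 CPM in stressed auxin-treated cells, against 376, 379, 341 and 368 CPM in unstressed auxin-treated cells. With vehicle they were at 587, 560.1, 592 and 609 CPM in stressed cells, against 351, 398, 366 and 353 CPM in unstressed cells. Labelled IGF2BP2 thus rose with stress by 0.68 ± 0.12 with vehicle (edgeR adjusted p 4.1e-06) and stood at 0.23 ± 0.12 with auxin (adjusted p 0.231), a difference of -0.45 ± 0.17 (95% interval -0.79 to -0.10; unadjusted p 0.011) that did not pass. IGF2BP1 was not among the genes tested. Of 16 reported IGF2BP3 targets tested (20 in the list) 7 had a difference above 0 in total reads, beside 51.3% of all genes, with a median of -0.01. HMGA2 had -0.02 ± 0.11, CD44 -0.03 ± 0.11, ALDH1A3 -0.01 ± 0.12 and MYC 0.10 ± 0.31. In labelled reads 4 of 14 targets were above 0, beside 48.9% of all genes, with a median of -0.10. Of 19 genes of the IGF2BP family and m6A machinery 11 were above 0 in total reads, with a median of 0.02.

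The genes at the edge of the unbiased ranking are given as genes that did not pass. For total reads the 5 smallest p-values above 0 belonged to ADAMTS7 (2.45 ± 0.69), UPP1 (1.36 ± 0.39), MAD1L1 (0.97 ± 0.28), LOXL4 (2.12 ± 0.66) and EVI5L (0.71 ± 0.21), and those below 0 to LIPT2 (-2.94 ± 0.90), SLC7A11, NSD3 (-0.88 ± 0.28), MND1 (-0.53 ± 0.17) and CISH (-1.39 ± 0.46). ADAMTS7, LIPT2, LOXL4 and CISH were under 10 CPM in every library. UPP1 (chromosome 7, 48088704 to 48108736), uridine phosphorylase, which splits uridine, was at 11.3, 20.9, 14.4 and 22.1 CPM in stressed auxin-treated cells, against 3.11, 3.22, 2.60 and 5.54 CPM in unstressed auxin-treated cells. In the vehicle arm it was at 15.7, 15.1, 10.4 and 20.7 CPM in stressed cells, against 8.72, 9.22, 7.16 and 8.75 CPM in unstressed cells. The stressed groups overlap, and the unstressed auxin-treated libraries lie below all others. UPP1 rose by 2.23 ± 0.29 with auxin and by 0.88 ± 0.26 with vehicle.

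For labelled reads the smallest p-values belonged to PDXDC1 (-1.59 ± 0.39), SARAF (-1.02 ± 0.26) and MICALL2 (-2.12 ± 0.55), each with an edgeR adjusted p of 0.377. SARAF, an ER membrane protein that turns down store-operated calcium entry, had 259 to 358 labelled CPM in stressed auxin-treated cells, against 147 to 191 in unstressed auxin-treated cells. With vehicle it had 229 to 307 in stressed cells, against 49.3 to 115 in unstressed cells. Its difference passed without replicate 3 of the unstressed vehicle-treated group (-1.38, edgeR adjusted p 0.012). MICALL2, an actin-linked protein, had 3, 7, 8 and 7 labelled reads in stressed auxin-treated cells, against 23, 14, 27 and 18 in unstressed auxin-treated cells, and with vehicle 18, 19, 12 and 26 in stressed against 17, 7, 20 and 15 in unstressed cells. Its labelled share had the lowest adjusted p of that reading (-2.41 ± 0.53, edgeR adjusted p 0.0863) and passed when replicate 2 of unstressed auxin-treated or replicate 3 of stressed vehicle-treated cells was left out (0.0432 and 0.0478).

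The labelled share of HSPA5 was 23.7%, 25.9%, 24.8% and 26.6% of its reads in stressed auxin-treated cells, against 10.1%, 9.91%, 9.18% and 9.65% in unstressed auxin-treated cells. With vehicle it was 27.9%, 28.9%, 26.3% and 28.0% in stressed cells, against 10.6%, 10.3%, 11.1% and 9.04% in unstressed cells. The share rose in both arms, by 1.93 and 2.02 on the log2 scale relative to the typical gene, with a difference of -0.09 ± 0.10. SDF2L1, an ER chaperone cofactor, had a difference of -0.54 ± 0.20 (edgeR unadjusted p 0.00865). Its labelled share was 16.05%, 16.4%, 16.5% and 17.8% in stressed auxin-treated cells, against 8.07%, 5.39%, 7.02% and 4.70% in unstressed auxin-treated cells. With vehicle it was 19.8%, 19.6%, 18.7% and 20.7% in stressed cells, against 7.50%, 3.91%, 5.47% and 4.36% in unstressed cells; only the stressed groups do not overlap between auxin and vehicle. IGF2BP2 had -0.43 ± 0.18 in the share (0.0186) and HERPUD1 -0.57 ± 0.25 (0.0264), neither of which passed (edgeR adjusted p 0.938 for both). The labelled share of whole libraries was lower with auxin as well, and the log2 values of single genes are relative to the typical gene of a library.

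Across the other gene lists the medians of the difference in total reads stayed near that of all genes (0.01, with 51.3% of all genes above 0). They were -0.04 for 48 genes of translocation and secretory transport (17 above 0), 0.03 for 35 of N-glycosylation (23 above 0), -0.06 for 20 tRNA synthetases (7 above 0), 0.03 for 18 UPR sensors and regulators (9 above 0), 0.01 for 33 immediate-early genes (17 above 0), 0.04 for 24 p53 targets and death effectors (18 above 0), 0.03 for 15 targets of nonsense-mediated decay (8 above 0), 0.03 for 32 genes of the mRNA decay machinery (20 above 0), -0.01 for 26 cholesterol synthesis genes (11 above 0) and -0.07 for 20 heat shock proteins (6 above 0). Of 10 reported substrates of IRE1-dependent decay 6 were above 0, with a median of 0.07. The median farthest from 0 was that of 9 targets of the aryl hydrocarbon receptor, a ligand-activated transcription factor (-0.27, 2 above 0). Of 31 small-subunit ribosomal protein genes 29 lay above 0 with a median of 0.09, and of 45 large-subunit genes 37, with a median of 0.07. In labelled reads the counts were 19 of 28 and 26 of 44, beside 48.9% of all genes. No member of the 19 lists passed the test of the difference in any reading.

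**Figure D4:**
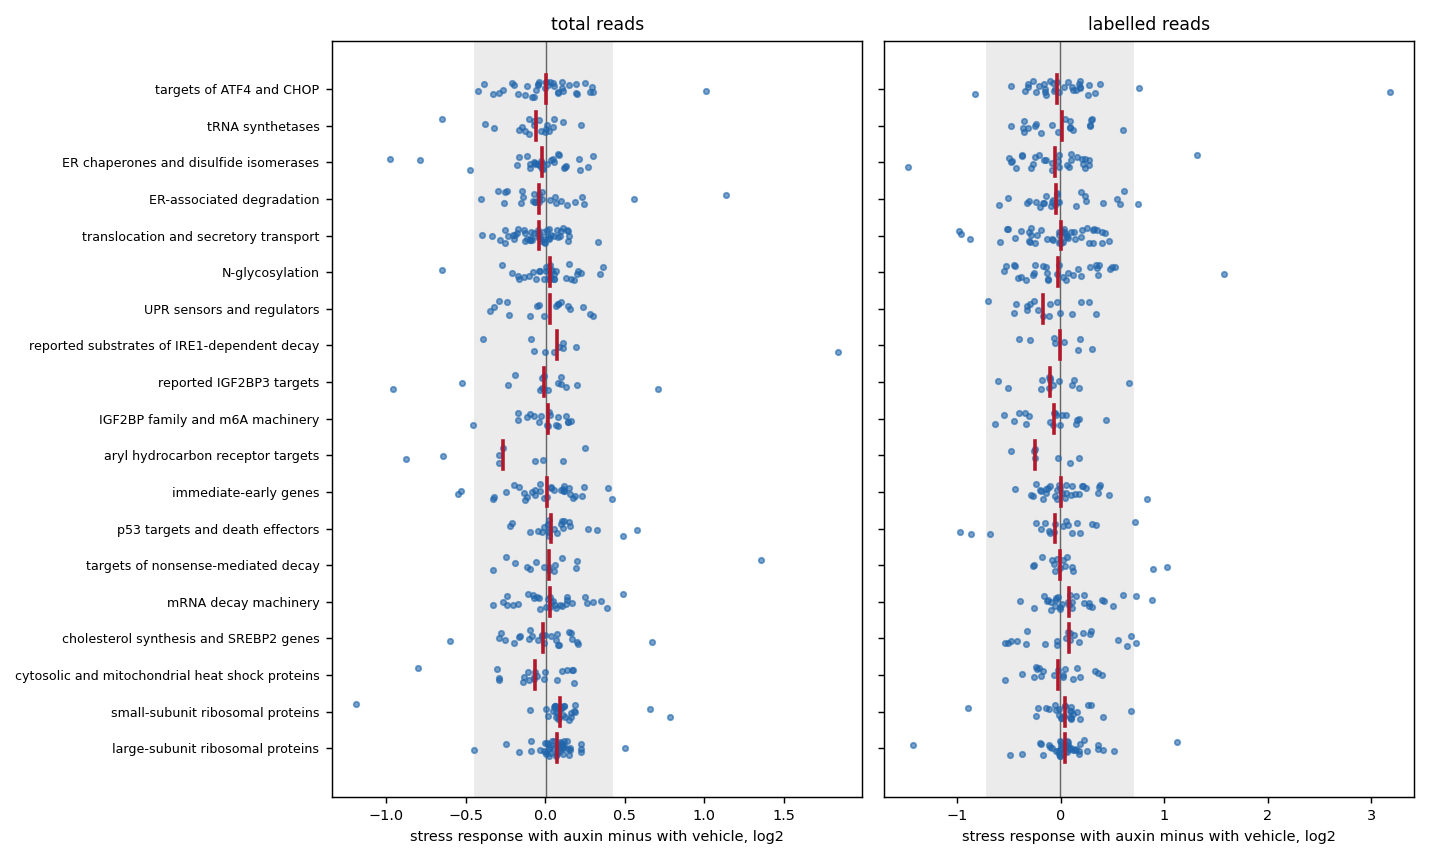
Difference of both stress responses (log2, x axis; auxin minus vehicle) for the tested members (points) of 19 gene lists (y axis) in total (left) and labelled reads (right), with the list's median (red) and, over all genes tested, the median (grey line) and the range from the 5th to the 95th percentile (grey band). Most list medians lie close to the grey line; the targets of the aryl hydrocarbon receptor lie lowest, at -0.27 in total reads.

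The strength of the response as a whole was read on genes chosen in libraries that do not enter the tagged fit, the 8 vehicle-treated parental ones. Of 1175 genes that had risen there, 505 (43.0%) had a difference above 0 in total reads of tagged cells, with a median of -0.03; of 1047 that had fallen, 655 (62.6%), with a median of 0.05, beside 51.3% of all genes. Leaving out 1 library moved the first median between -0.0913 and 0.0206; its sign turned without replicate 4 of unstressed vehicle-treated (0.0164), replicate 2 of unstressed auxin-treated (0.0201) or replicate 3 of stressed vehicle-treated cells (0.0206). In labelled reads 495 of 1037 risen (47.7%) and 410 of 811 fallen genes (50.6%) lay above 0, with medians of -0.01 and 0.01, beside 48.9% of all genes. For each tagged library the log2 values of these genes, less each gene's mean over the 16, were regressed on the parental response. In total reads the slope averaged 0.382 ± 0.066 in stressed auxin-treated and -0.0942 ± 0.114 in unstressed auxin-treated cells, and 0.114 ± 0.119 in stressed vehicle-treated and -0.402 ± 0.114 in unstressed vehicle-treated cells (SD, n = 4 each). The step with stress was thus 0.476 with auxin and 0.516 with vehicle (92.3%). In labelled reads the means were 0.438 ± 0.0239, -0.282 ± 0.0581, 0.292 ± 0.0513 and -0.448 ± 0.0574 in the same order of groups, steps of 0.720 with auxin and 0.740 with vehicle (97.3%). Both auxin-treated groups sat higher on this scale than the vehicle-treated group of the same state. The steps with auxin and with vehicle differed by less than the SD between libraries. In total reads replicate 2 of unstressed auxin-treated cells (0.0571) lay above replicate 4 of stressed vehicle-treated cells (-0.0466). The parental libraries that set the scale also differed in covered T positions per read, 22.5 ± 0.597 stressed against 21.3 ± 1.02 unstressed (SD, n = 4 each). Auxin-treated tagged libraries likewise covered more than vehicle-treated ones. The part of that measure in the slopes was not tested.

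Genes whose promoters hold the printed motifs were set beside the rest. The 14 tested genes with an ERSE had a median stress response of 1.04 with auxin and 1.09 with vehicle in total reads, and a median difference of -0.03, against 0.01 in genes without it. The 11 with an ERSE-II had medians of 0.454 and 0.398 and a difference of 0.09. The 109 with a CARE had 0.05 and 0.06 and a difference of 0.00. Genes were also divided by their labelled share in unstressed vehicle-treated parental cells. The 2700 genes with the lowest shares (1.79% to 13.7%) had a median difference of 0.02 in total reads, the 2700 in the middle (13.7% to 25.3%) -0.01 and the 2701 with the highest (25.3% to 93.9%) -0.01.

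Labelling of whole libraries was compared by an exact two-sided permutation test over 4900 arrangements of the auxin labels within each state. Labelled reads made up 11.05% ± 0.641 of reads in stressed auxin-treated and 12.1% ± 0.636 in unstressed auxin-treated cells, and 11.9% ± 0.467 in stressed vehicle-treated and 12.6% ± 0.747 in unstressed vehicle-treated cells (SD, n = 4 each). The difference of the stress effects was -0.241 points (exact p 0.737, adjusted over 2 measures 0.970). Conversions made up 0.751% ± 0.0381 and 0.997% ± 0.0746 of covered T positions with auxin, stressed and unstressed, and 0.887% ± 0.05003 and 1.13% ± 0.0825 with vehicle, a difference of -0.0038 points (exact p 0.970). Mean conversion was lower with stress in both arms and lower with auxin in both states, with auxin below vehicle in all 8 same-numbered pairs for both measures. The arrangements also exchange this common auxin effect, which widens the range they give. Every library had received s4U, so the background of T-to-C reads was not measured.

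The parental line gives the same difference where auxin meets an untagged IGF2BP3. In its 16 libraries the total reads of 0 of 11032 genes passed (1897 at an unadjusted p under 0.05, 17.2%), as did labelled reads of 0 of 8612 (822 at that p, 9.54%) and the labelled share of 1 (0.0116%; 556 at that p, 6.46%), GLRX3. Replicate 1 of stressed auxin-treated parental cells stands apart, with 0.987 M reads in named genes and 15.1 covered T positions per read, against at least 20.3 in all other libraries. Without it 0 genes passed in total reads (1967 at an unadjusted p under 0.05, 17.7%), 10 of 8820 (0.113%) in labelled reads (868, 9.84%) and 0 in the share (601, 6.81%). The parental differences given next are without it. The test of whether the difference itself differed between the lines passed for 0 genes in each reading, with and without that library, by edgeR. At an unadjusted p under 0.05 there were 1007 (9%), 577 (6.43%) and 483 (5.38%) genes with all 32 libraries and 874 (7.76%), 575 (6.27%) and 496 (5.41%) without that library, for total reads, labelled reads and the share.

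UPP1 had a difference of 1.36 ± 0.39 in tagged cells and of 1.26 ± 0.40 in parental cells, which lack the tag; tagged minus parental was 0.08 ± 0.56. SLC7A11 had -0.39 ± 0.12 in tagged and -0.36 ± 0.12 in parental cells, and STC2 -0.27 ± 0.12 and -0.34 ± 0.13. HERPUD1 had -0.25 ± 0.16 in tagged and -0.25 ± 0.18 in parental cells for total reads, and -0.59 ± 0.20 and -0.42 ± 0.20 for labelled reads. The same sign and overlapping intervals in both lines were seen for these 4 genes. They were also seen for the 3 that follow, whose parental values were smaller in size. XBP1 had -0.32 ± 0.13 in tagged cells and -0.02 ± 0.16 in parental cells, labelled IGF2BP2 -0.45 ± 0.17 and -0.04 ± 0.19, and labelled SARAF -1.02 ± 0.26 and -0.11 ± 0.27. For these 3 tagged minus parental came to -0.32 (95% interval -0.73 to 0.09), -0.43 (-0.93 to 0.07) and -0.93 (-1.68 to -0.17), with edgeR adjusted p of 0.667, 0.8292 and 0.730. ATF4 had -0.01 ± 0.16 in tagged and 0.51 ± 0.20 in parental cells, tagged minus parental -0.54 (95% interval -1.10 to 0.03; edgeR adjusted p 0.637).

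**Figure D5:**
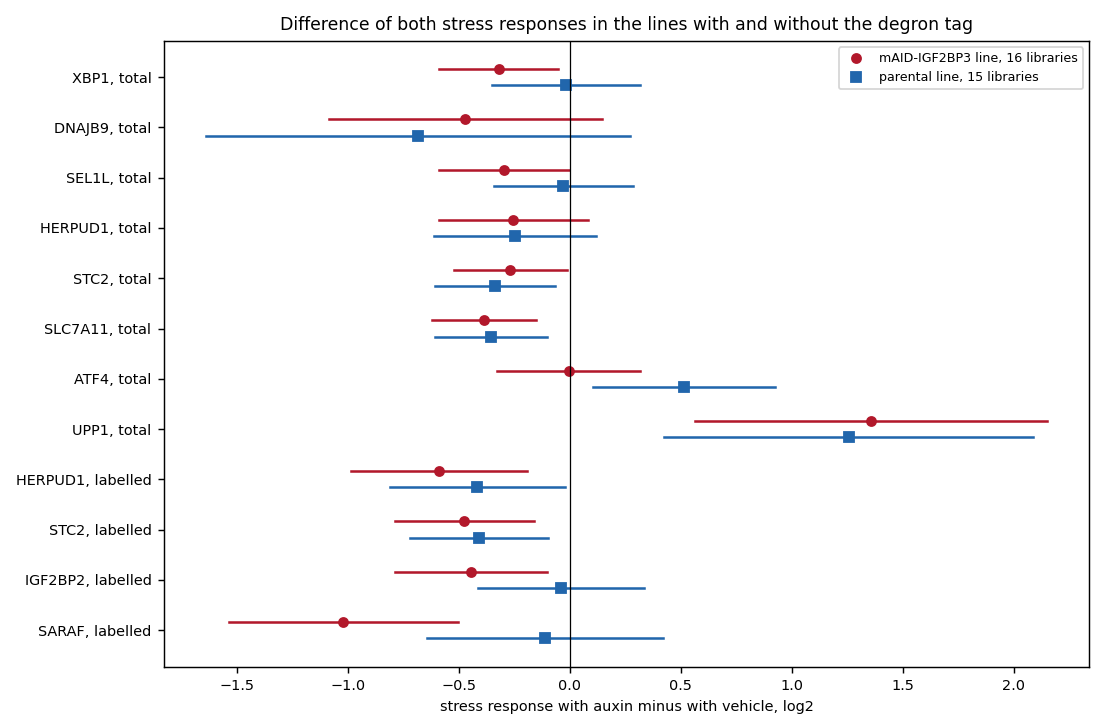
Difference of both stress responses (log2, x axis) with its 95% interval for 8 genes in total reads and 4 in labelled reads (y axis), in the tagged line (red, 16 libraries) and in the parental line (blue, 15 libraries, without the one that stands apart). The red and blue intervals of UPP1, SLC7A11, STC2 and HERPUD1 overlap almost fully; the blue point of XBP1 is at -0.02 and that of labelled IGF2BP2 at -0.04.

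Over the 10824 genes tested in both lines, 6248 (57.7%) had the same sign of the difference in total reads, with a Pearson r of 0.148; the lines share no library. The 290 genes with an unadjusted p under 0.05 in tagged cells had the same sign in 185 cases (63.8%). In labelled reads the shares were 50.9% of 8061 genes and 55.2% of 328. The ribosomal proteins lay above 0 in the parental line too, 27 of 32 small-subunit genes with a median of 0.28 and 33 of 46 large-subunit genes with a median of 0.16, beside 0.02 over all genes. The targets of the aryl hydrocarbon receptor had a parental median of -0.04 with 4 of 9 above 0. Of the reported IGF2BP3 targets 4 of 16 lay above 0 in parental total reads (median -0.08) and 3 of 14 in parental labelled reads (median -0.19).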

How the data were processed

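SLAM-seq 3′-end libraries of 16 tagged and 16 parental HCT116 wells were used, 4 per group. The deposited tables give, per transcript region, counts of reads, of reads with T-to-C conversions, of covered T positions and of conversions, in the column layout of Slamdunk per the file headers, on build hg38 per the submitters' processing notes. The sources used here do not name mapping thresholds, software versions or the annotation release. A looser or stricter number of conversions per labelled read would shift all labelled values. RefSeq identifiers were matched to symbols for 40002 of 40767 NM and 6326 of 33066 XM transcripts and for none of 21749 others, which left 36.9% to 38.1% of reads of tagged libraries without a name and out of library sizes. The row with most reads stood for a gene. Of 18825 named genes, those with counts identical to another gene's were dropped, 72 of them with a mean of at least 1 read. In all, 14423 genes with at least 1 read were kept.

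Counts were fitted with edgeR 4.0.16 in R 4.3.3 (filterByExpr, TMM, robust quasi-likelihood test, Benjamini-Hochberg adjustment over all genes tested, threshold 0.05), 1 coefficient per group. For the labelled share a gene's labelled reads and its remaining reads entered as paired columns, with library terms and separate TMM factors, so it is relative to the typical gene. Intervals are 95% intervals from the standard error and fitted degrees of freedom. The procedure was run on simulated counts with differences planted in well-counted genes only. The simulated counts held no within-group component shared between genes, and recovery in genes with few reads was not tried. Alternatives used DESeq2 1.42.0, limma 3.58.1, other scalings, filters and transcripts, and each library left out; a fit of all but 1 of the 32 libraries was chosen after seeing the data. Slopes over responders used log2(CPM + 0.5), with 2222 genes for total and 1848 for labelled reads.

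Genes named are the 5 with the smallest p in each direction, as none passed, a panel of stress and IGF2BP genes, and the lowest and highest of a list. The members and lists were chosen with earlier results of these data known. Replicate wells differed by more than sampling noise, with a chi-square per degree of freedom of at least 2.10. Precision was lower in labelled reads, where the median standard error of the difference was 0.391 on the log2 scale, against 0.217 for total reads.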

Additional observations from a re-analysis of the deposited data

Results flagged for a closer look

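Among 84 sets of 4 libraries checked, 3 had 1 library far from the other 3 by Dixon's criterion (a gap over its 95% critical share of the range), where chance gives about 1 in 20. IGF2BP3 total reads stood at 163 CPM in replicate 4 of unstressed vehicle-treated tagged cells, with the nearest at 155 CPM. XBP1 total reads stood at 46.1 CPM in replicate 3 of unstressed auxin-treated tagged cells, with the nearest at 55.7 CPM. HERPUD1 labelled reads stood at 66.4 CPM in replicate 1 of unstressed auxin-treated tagged cells, with the nearest at 134 CPM.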

How the results depend on the processing

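The count of genes passing for the difference of the responses was 0 in total reads under every alternative run. Leaving out 1 library gave 0 to 1 gene in labelled reads (SARAF, without replicate 3 of unstressed vehicle-treated cells) and 0 to 1 in the labelled share (MICALL2), and no filter on low counts gave 2 in the share, MICALL2 and H4C11. With the replicate number as a block the count was 0 in each reading (347, 343 and 425 at an edgeR unadjusted p under 0.05). Of 24 same-numbered pairs 11 had a correlation over 0.1, and 7 of 16 libraries matched their own number best. The median correlation was 0.083 in same-numbered pairs (-0.247 to 0.589) and -0.029 in the 72 differently numbered ones. By gene levels the numbers thus pair the wells in part at most. Library-wide labelling followed the numbers between auxin and vehicle within a state, but not across states. Of the vehicle-treated libraries, replicates 1 and 3 had the highest labelled percent unstressed (13.4% and 13.0%) and the lowest stressed (11.7% and 11.3%). Auxin-treated replicates 1 and 3 were likewise highest unstressed and lowest stressed. The same-numbered differences of the stress effects in the labelled percent were -0.444, -0.150, -0.191 and -0.180 points. With that block, added after seeing the data, the mean of -0.241 had an exact sign-flip p of 0.125, the smallest that 4 pairs allow, and 0.695 with labels swapped within pairs; conversion had 2 of 4 below 0 (0.969 with labels swapped). For stress in total reads, a fit of all 32 libraries called 465 genes with auxin and 452 with vehicle, and a covariate for the first within-group component (37.3% of that variance) 1674 and 1400. Without centring on the typical gene, 1054 genes passed for stress with auxin in the labelled share, 212 higher and 842 lower, in place of 453 and 195. Without 1 library the stress counts ranged from 688 to 1047 with auxin and 683 to 981 with vehicle in total reads, 858 to 1116 and 860 to 1076 in labelled reads, and 500 to 663 and 522 to 628 in the share. The parental difference passed for 10 genes in labelled reads and 0 in the share without the library that stands apart, against 0 and 1 with it. The cause was not tested for any of these. A fit of all but that 1 of the 32 libraries, chosen after seeing the data, gave 0 in each reading for the tagged line. HSP90B1 lost both stress calls in the fit of all 32 libraries (edgeR adjusted p 0.194 with auxin, 0.110 with vehicle). Of the differences of named genes, none turned its direction past the threshold. Only 4 values passed under an alternative, those of SARAF and MICALL2, so this says little about direction. Short of the threshold some signs turned between alternatives, as in total reads of ATF4 (-0.109 to 0.0767) and HSPA5 (-0.129 to 0.0128). Others kept their sign, as in total reads of XBP1 (-0.392 to -0.278) and STC2 (-0.339 to -0.225). Genes under 5 CPM and labelled reads are bounded least well, and protein and background conversion were not analysed here.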

Other observations

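In the parental line without the library that stands apart, the 10 genes that passed in labelled reads were ANLN, ARID3A, HMCES, MCM2, PTS, RCC1, TRIOBP, UCKL1 and ZNF227 below 0 and BORCS6 above 0. TRIOBP, an actin-binding protein, had -1.21 ± 0.23 (edgeR adjusted p 0.00894) and MCM2, a subunit of the replicative helicase, -1.10 ± 0.24 (0.035). Of 17 UPR sensors and regulators tested in labelled reads of tagged cells, 4 lay above 0 with a median of -0.17, against 12 of 18 in parental cells, with a median of 0.24; the difference between the lines was not tested for the list.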
